A study of Rattus norvegicus with 6 samples.

Results

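The genes described here are 9 genes of endothelial coagulation and fibrinolysis, Vwf, F8, Thbd, Procr, F3, Tfpi, Plat, Plau and Plaur. They were chosen by symbol from 32623 genes in the files, with earlier results of these data known. All 9 matched a single identifier, and all 9 passed the filter on low counts that left 12742 genes for testing. Their RNA was measured by sequencing in primary sinusoidal endothelial cells, which line the capillaries of the liver and are perforated by small pores, isolated from Han Wistar rats. The pathological group was kept at 12 mmHg and the physiological group at 1 mmHg, with 3 libraries each. Cells of both groups shared a perfused device with liver macrophages, hepatocytes and stellate cells for 48 h, under a shear stress of 1.15 dyn/cm2. The series asks how raised sinusoidal pressure, as in portal hypertension, alters endothelial expression. Pathological replicates 1, 2 and 3 have the sample numbers 3, 9 and 23, and physiological replicates 1, 2 and 3 have 2, 11 and 22; no label says that neighbouring numbers share a preparation. The labels do not say whether each library is a separate animal or culture, so the p-values reflect only how far these libraries scatter, which may be technical.

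Endothelium keeps blood fluid by balancing opposed surface systems. Tissue factor (F3) starts thrombin formation and tissue factor pathway inhibitor (Tfpi) blocks it, while thrombomodulin (Thbd) and the endothelial protein C receptor (Procr) turn thrombin into an activator of the anticoagulant protein C. Von Willebrand factor (Vwf) tethers platelets and carries coagulation factor VIII (F8), whose main source is the sinusoidal endothelium of the liver. Tissue-type and urokinase-type plasminogen activators (Plat, Plau) and the urokinase receptor (Plaur) start the dissolution of fibrin.

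The libraries differed in depth, in transcripts of other cells and in completeness. Totals ran from 11426299 to 23754767 counts in the pathological group and from 8925149 to 24025406 counts in the physiological group. The summed level of 18 hepatocyte markers was 326, 715 and 65604.7 CPM (counts relative to the scaled library total) in pathological replicates 1, 2 and 3, and 217, 44045.4 and 38310.3 CPM in physiological replicates 1, 2 and 3. Most pan-endothelial markers were present in every library, although Cldn5 was at 0 throughout and Sox18 was at 0 CPM in pathological replicate 2. The 16 pan-endothelial markers summed to 856, 898 and 2752 CPM in the pathological and 1465, 3094 and 2286 CPM in the physiological libraries. The vascular cadherin gene Cdh5 measured 184 to 221 CPM in the pathological and 215 to 320 CPM in the physiological libraries. Other markers were less even: Kdr measured 4.18, 13.6 and 487 CPM in pathological and 43.8, 502 and 355 CPM in physiological replicates 1 to 3. Erg, Emcn, Eng, Egfl7, Sox17 and Sox18 were also lowest in pathological replicates 1 and 2 and physiological replicate 1, while Tek, Tie1, Esam, Ptprb, Mmrn2, Myct1 and Ecscr were not. The sinusoidal endothelial markers summed to 3731, 4440.5 and 9390.4 CPM in the pathological and 4275, 8832 and 6992 CPM in the physiological libraries. Of these, the hyaluronan receptor gene Lyve1 measured 41.3, 75.9 and 2015 CPM in pathological replicates 1 to 3 and 248, 1695 and 1618 CPM in physiological replicates 1 to 3. Stab2, Fcgr2b, Clec4g, Oit3, Dnase1l3 and Maf were likewise lowest in pathological replicates 1 and 2 and physiological replicate 1, while Stab1, Mrc1, Gata4, Flt4 and Ctsl were not. Ctsl made up most of the sum in those libraries, at 2859, 3897 and 2664 CPM. Genes at 10 CPM or more in at least 3 of the other libraries were at 0 counts most often in the libraries with sample numbers 23 and 22, for 11.9% of such genes in pathological replicate 3 and 8.29% in physiological replicate 3, against 0.547% to 1.95% in the other 4 libraries. In bulk RNA, fewer cells of a type and less RNA per cell cannot be told apart.

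No gene of the 9 passed the threshold between the pressures, and none had groups whose values did not overlap. With edgeR's quasi-likelihood test and a Benjamini-Hochberg adjusted p under 0.05, 0 of the 9 and 0% of all genes tested were called. At an unadjusted p under 0.05 there were again 0 of the 9, beside 0.259% of all genes, and DESeq2 and limma-voom also called 0 of the 9. Groups did not overlap for 4.61% of all genes tested. Of the 9 log2 fold changes, pathological over physiological, 6 were negative and 3 positive with a median of -0.28, but with libraries scaled to their endothelial markers only 2 of 9 were negative and the median was 0.64. The median of all genes was 0.05 in the first case and 0.86 in the second, so the median of the 9 lay below that of all genes in both, but above it with the replicate block of neighbouring sample numbers, at 0.09 against -0.07. The adjusted p of each of the 9 genes was 1 (edgeR), and the 95% confidence intervals all included no change, with the narrowest for Procr and the widest for F3.

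**Figure D1:**
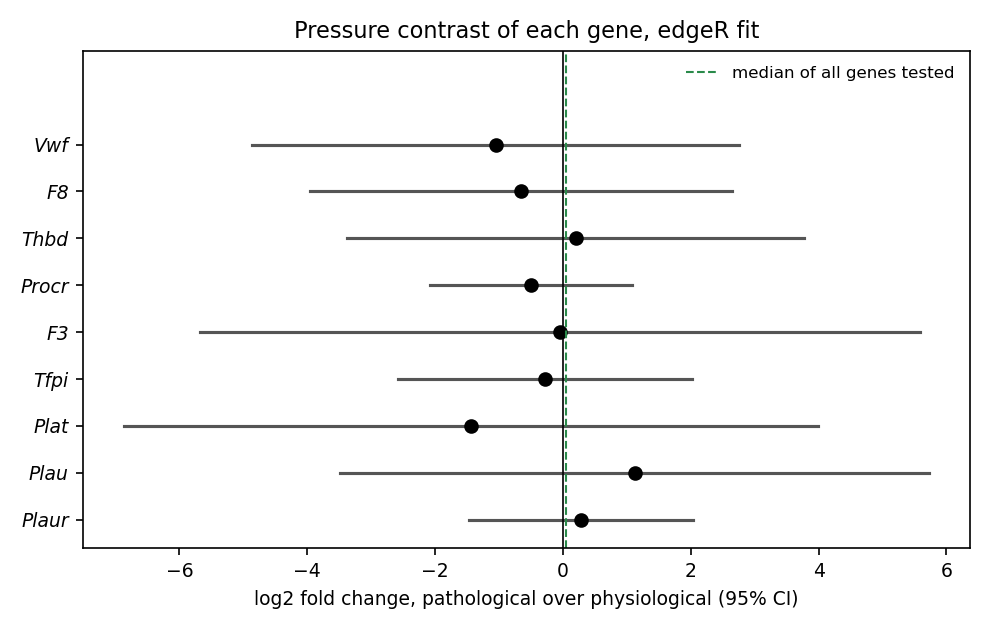
Log2 fold change of each gene, pathological over physiological, from the edgeR fit over all genes (points) with its 95% confidence interval (lines); the dashed line marks the median of all genes tested, 0.05. Every interval spans 0, from -2.09 to 1.09 for Procr and from -5.68 to 5.59 for F3.

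The procoagulant carrier gene Vwf (ENSRNOG00000019689) had a difference between its group means that was smaller than the SD of the physiological libraries. Vwf stood at 4.90, 5.54 and 26.5 CPM in pathological replicates 1, 2 and 3, and at 11.7, 64.2 and 0.570 CPM in physiological replicates 1, 2 and 3. The physiological group thus held both the highest library and the lowest, which had 4 counts, a 113-fold range. The mean was 12.3 ± 12.3 CPM at pathological and 25.5 ± 34.0 CPM at physiological pressure (SD, n = 3 each), and the log2 fold change was -1.05 (95% CI -4.86 to 2.76, edgeR adjusted p = 1). Without physiological replicate 2 the log2 fold change was 0.92. Platelets and megakaryocytes also carry Vwf. Of 12 platelet and megakaryocyte markers, Ppbp and Gp6 were at 0 in every library, and the list summed to 10.7, 10.4 and 26.2 CPM in the pathological and 10.5, 5.26 and 3.99 CPM in the physiological libraries. The part of these cells in the Vwf values was not tested.

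F8 (ENSRNOG00000031197), the cofactor that speeds activation of factor X, was even across 5 libraries and nearly missing from 1. It stood at 28.9, 15.9 and 0.569 CPM in pathological replicates 1 to 3, and at 31.2, 12.7 and 27.4 CPM in physiological replicates 1 to 3. Pathological replicate 3 held 6 counts, against 192 in the shallower physiological replicate 3. The same library had the highest Lyve1 of all 6 and the largest share of well-measured genes at 0, and the part of that in the F8 value was not tested. The means were 15.1 ± 14.2 CPM at pathological and 23.8 ± 9.79 CPM at physiological pressure, and the log2 fold change was -0.65 (95% CI -3.95 to 2.64, edgeR adjusted p = 1). Leaving out pathological replicate 3 brought the log2 fold change to -0.08.

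F3 (ENSRNOG00000011800), the trigger of coagulation, was scarce at both pressures. It stood at 3.15, 1.89 and 0 CPM in pathological replicates 1 to 3, and at 3.85, 1.33 and 0 CPM in physiological replicates 1 to 3. The libraries at 0 were replicate 3 of each pressure, where a count of 0 allows up to 0.284 CPM at pathological and 0.428 CPM at physiological pressure (3 counts, counting error only). These are the libraries with the most well-measured genes at 0, and the part of that in the F3 values was not tested. The groups overlapped almost fully, with a log2 fold change of -0.04 (95% CI -5.68 to 5.59, edgeR adjusted p = 1).

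Tfpi (ENSRNOG00000005039), the inhibitor of tissue factor, was steady at pathological pressure. It measured 39.0, 29.9 and 43.6 CPM in pathological replicates 1 to 3, against 62.3, 67.5 and 6.70 CPM in physiological replicates 1 to 3. Each physiological library thus lay outside the pathological range, with 2 above it and 1 below. The means of 37.5 ± 6.95 CPM at pathological and 45.5 ± 33.7 CPM at physiological pressure gave a log2 fold change of -0.28 (95% CI -2.58 to 2.02, edgeR adjusted p = 1). A difference in spread was not tested.

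**Figure D2:**
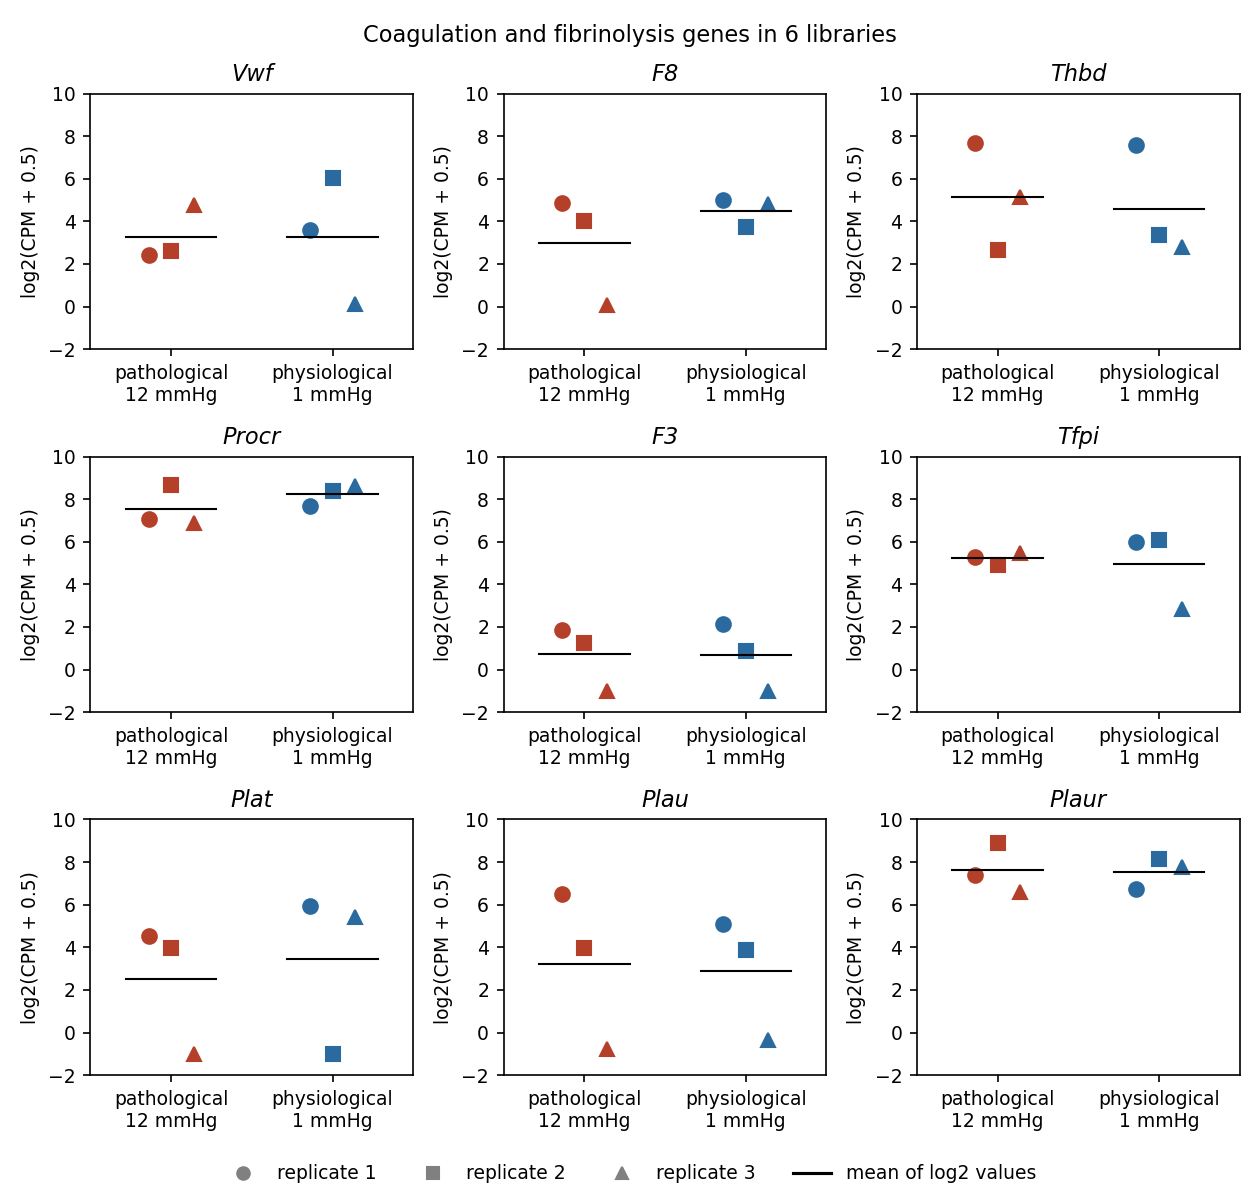
Level of each gene as log2(CPM + 0.5) in the 3 pathological (12 mmHg, left) and 3 physiological (1 mmHg, right) libraries; symbols mark the replicate number and lines the mean of the log2 values. Thbd is high in replicate 1 of both pressures, at 202 and 194 CPM, and F3 and Plau are lowest in replicate 3 of both pressures.

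Thbd (ENSRNOG00000004687), the thrombin receptor of the protein C pathway, separated 2 libraries from the other 4 without regard to pressure. It measured 202, 5.83 and 34.3 CPM in pathological replicates 1 to 3, and 194, 9.78 and 6.41 CPM in physiological replicates 1 to 3. Replicate 1 of each pressure was thus the high library of its group, and these 2 libraries have neighbouring sample numbers. Mean levels were 80.6 ± 106 CPM at pathological and 70.1 ± 107 CPM at physiological pressure, and the log2 fold change was 0.20 (95% CI -3.37 to 3.78, edgeR adjusted p = 1). The value depended on those libraries: it was -1.84 without pathological replicate 1 and 3.44 without physiological replicate 1. The same 2 libraries were the highest in Ptprc, a marker of all leukocytes, which measured 48.8, 1.99 and 0 CPM at pathological and 28.5, 1.16 and 0.143 CPM at physiological pressure. The 14 macrophage markers, a list that includes Ptprc and in which Timd4 was at 0 in every library, did not single out these libraries as a whole. They summed to 799, 48.7 and 1550 CPM (pathological) and 682, 1318 and 1053 CPM (physiological). Lyz2, Cd163 and Vsig4 were also highest in the same 2 libraries. Cd68, Clec4f, Marco, Adgre1, Csf1r, C1qa, C1qb, C1qc and Cd5l did not have this order. The part of leukocyte RNA in the Thbd values was not tested.

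Procr (ENSRNOG00000019330), which presents protein C to the thrombomodulin complex, was among the steadiest of the 9. It measured 133, 404 and 117 CPM in pathological replicates 1 to 3, and 205, 331 and 389 CPM in physiological replicates 1 to 3. Pathological replicates 1 and 3 lay below every physiological library, and pathological replicate 2 lay above them all. The means of 218 ± 161 CPM at pathological and 308 ± 94.2 CPM at physiological pressure gave a log2 fold change of -0.50 (95% CI -2.09 to 1.09, edgeR adjusted p = 1). Without pathological replicate 2 the log2 fold change was -1.29, and without pathological replicate 3 it was -0.18.

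Among the genes of fibrinolysis, Plat (ENSRNOG00000019018), the activator that endothelium releases, had the most uneven values. It measured 22.5, 15.3 and 0 CPM in pathological replicates 1 to 3, and 60.6, 0 and 41.8 CPM in physiological replicates 1 to 3. The libraries in which Plat was detected did not overlap between the pressures, but each pressure also held 1 library at 0, where the limit is 0.284 CPM in pathological replicate 3 and 0.174 CPM in physiological replicate 2. Both libraries at 0 were rich in hepatocyte transcripts, as was physiological replicate 3, where Plat was well detected with 293 counts. The means were 12.6 ± 11.5 CPM at pathological and 34.1 ± 31.0 CPM at physiological pressure, and the log2 fold change was -1.44 (95% CI -6.87 to 4.00, edgeR adjusted p = 1). Its fold change was negative under all 17 alternative settings.

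Plau (ENSRNOG00000010516), the urokinase gene, spanned a 943-fold range. It measured 89.4, 15.0 and 0.0948 CPM in pathological replicates 1 to 3, and 33.1, 14.3 and 0.285 CPM in physiological replicates 1 to 3. At both pressures Plau fell from replicate 1 to replicate 3, with only 1 and 2 counts in replicate 3. The fold of pathological over physiological was 2.70 for replicate 1 and 1.05 for replicate 2. Macrophages also make urokinase. The macrophage markers summed to 799, 48.7 and 1550 CPM at pathological and 682, 1318 and 1054 CPM at physiological pressure, and were highest in pathological replicate 3, where Plau had 1 count. Single markers of that list differed. Ptprc, Lyz2, Cd163 and Vsig4 were highest in replicate 1 of both pressures, as was Plau, with Ptprc at 48.8 CPM (pathological) and 28.5 CPM (physiological). Cd68, Clec4f, Marco, Adgre1, Csf1r, C1qa, C1qb, C1qc and Cd5l did not have this order. The part of macrophage RNA in the Plau values was not tested. The means of 34.8 ± 47.8 CPM at pathological and 15.9 ± 16.5 CPM at physiological pressure gave a log2 fold change of 1.13 (95% CI -3.48 to 5.74, edgeR adjusted p = 1). Without pathological replicate 1 it was -1.08.

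Plaur (ENSRNOG00000037931), the receptor that holds urokinase at the cell surface, did not share the range of its ligand. It measured 170, 476 and 95.3 CPM in pathological replicates 1 to 3, and 108, 281 and 219 CPM in physiological replicates 1 to 3. Pathological replicates 2 and 3 held the highest and the lowest of the 6 values. The means of 247 ± 202 CPM at pathological and 203 ± 87.7 CPM at physiological pressure gave a log2 fold change of 0.29 (95% CI -1.47 to 2.04, edgeR adjusted p = 1). Without pathological replicate 2 it was -0.60.

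The 9 genes differed widely in how far they varied among the libraries. The SD of log2(CPM + 0.5) over all 6 libraries was 0.78 for Procr and 0.87 for Plaur, 1.18 for Tfpi and 1.38 for F3, all below the median of 1.62 over all genes tested. It was 1.86 for F8, 2.05 for Vwf, 2.31 for Thbd, 2.95 for Plau and 3.15 for Plat, and 95.3% of all genes tested varied less than Plat. F3 was at most 3.85 CPM and at 0 counts in replicate 3 of each pressure, so the added 0.5 CPM limits its SD. These figures describe the libraries and carry no test.

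**Figure D3:**
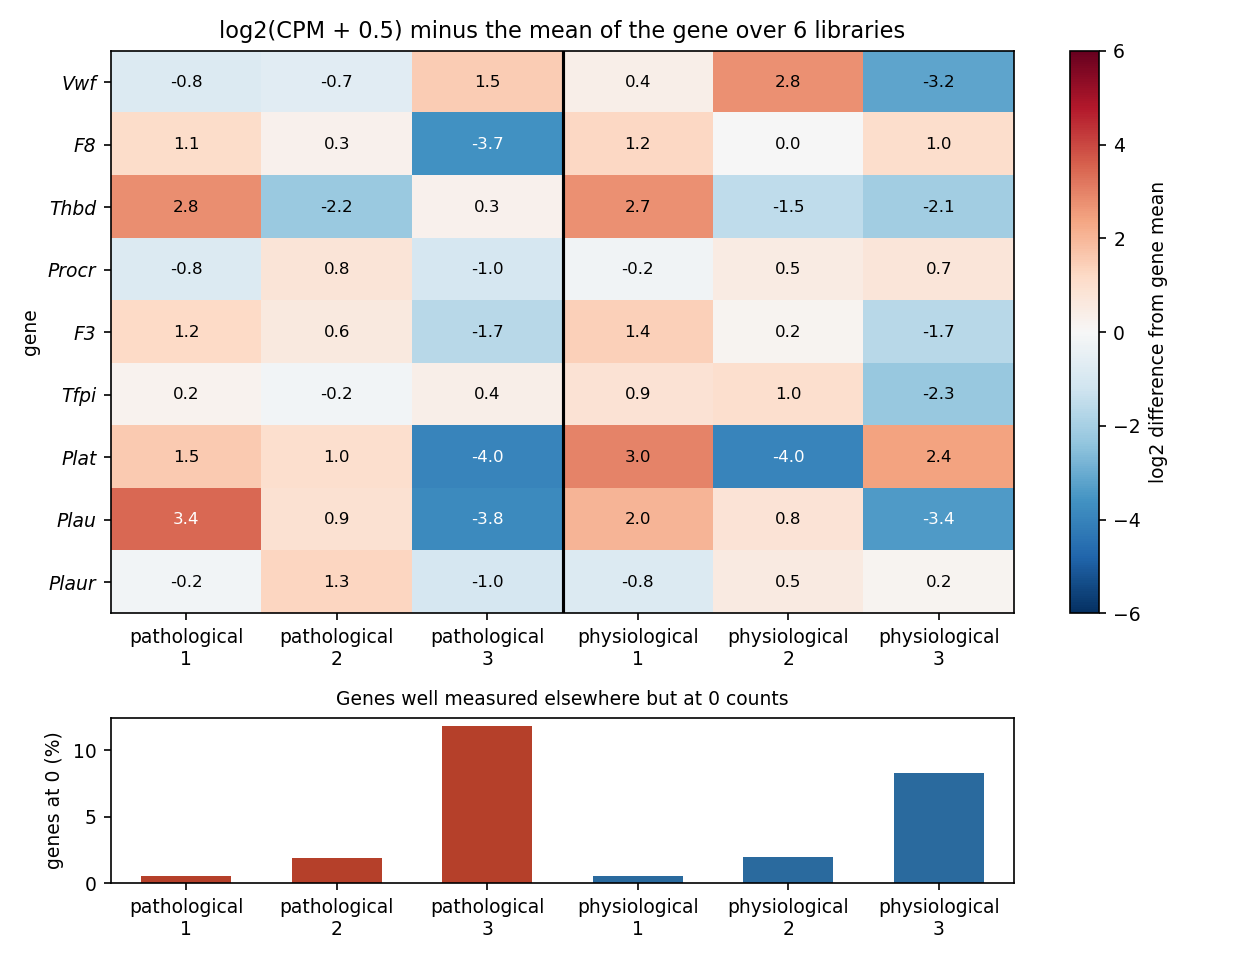
Upper panel, log2(CPM + 0.5) of each gene minus its mean over 6 libraries, with the pathological libraries left of the physiological ones; lower panel, share of genes at 10 CPM or more in at least 3 other libraries that were at 0 counts in the library. F3 and Plau are lowest in both libraries numbered 3, where 11.9% and 8.29% of such genes were at 0, whereas Procr and Plaur stay close to their means.

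By the measure given next, Procr and Plaur were also the most alike of the 36 pairs of these genes. The likeness measure was the root mean square difference of their log2(CPM + 0.5) values, each centred on its gene mean over the 6 libraries, and it was 0.479 for Procr and Plaur, against 1.06 for the next pair, Vwf and Tfpi, and a median of 2.20 over the pairs. Both genes were highest in pathological replicate 2 and lowest in pathological replicate 3. The measure is not scaled to the SD of each gene, so it tends to be small for genes that vary little. Procr and Plaur had the lowest SDs of the 9, at 0.78 and 0.87. Their promoters are printed because this pair had the smallest difference. The windows run from 250 bases before to 50 bases after the gene start, on the gene's strand, from RefSeq on GRCr8. Procr lies at chr3:164714477-164714776 (plus strand) and Plaur at chr1:89181113-89181412 (plus strand), with the AP-1 motif TGANTCA in capitals.
Procr: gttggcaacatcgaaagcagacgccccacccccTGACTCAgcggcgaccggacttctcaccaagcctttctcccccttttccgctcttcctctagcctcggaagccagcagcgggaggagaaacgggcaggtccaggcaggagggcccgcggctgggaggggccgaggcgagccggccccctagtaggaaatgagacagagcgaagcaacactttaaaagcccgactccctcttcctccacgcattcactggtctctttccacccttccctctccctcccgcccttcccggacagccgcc
Plaur: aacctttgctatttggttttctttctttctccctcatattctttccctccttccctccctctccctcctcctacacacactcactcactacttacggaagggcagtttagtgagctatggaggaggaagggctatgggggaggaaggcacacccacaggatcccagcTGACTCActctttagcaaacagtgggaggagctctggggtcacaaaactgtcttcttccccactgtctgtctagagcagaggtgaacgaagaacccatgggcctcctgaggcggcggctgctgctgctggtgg
Both windows hold the letters TGACTCA, which begin at position -217 from the gene start in Procr and at -83 in Plaur. Over 33469 rat promoter windows of the same length, 7.33% hold TGANTCA on either strand. The 4 genes with a window in the table were Plau, Plaur, Procr and Tfpi, the last with 2 windows, and TGANTCA was found in no window of Plau or Tfpi. The KLF motif CACCC was found for Plaur, Procr and Tfpi, and in 54.9% of all windows. The SP1 motif GGGCGG was found for Plau, Procr and Tfpi, and in 33.1% of all windows. A loose pattern searched under the name NF-kB, with any letter allowed in its middle, was found for the same 3 genes and in 47.3% of all windows. This pattern is wider than the NF-kB consensus, so its matches are not read as NF-kB sites. In Plau these matches overlap those of SP1. The EGR motif GCGNGGGCG, the CRE motif TGACGTCA and the TATA motif TATAAA were in none of these 5 windows, and in 4.98%, 1.83% and 14.2% of all windows. A match is a run of letters and not evidence of binding.

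The genes nearest in pattern to single members over these 6 libraries were sought among 7323 candidates with a mean log2 CPM of at least 3. Some gene is nearest to any member, and no background for these differences was computed. Jmjd6 was nearest to Plaur, with a root mean square difference of 0.128, followed by the chaperone gene Dnaja1 at 0.222. Arhgef3, an exchange factor for small GTPases, was nearest to Procr at 0.156, followed by Wtip at 0.269. Fubp3 and Serinc5 were nearest to F3 at 0.208 and 0.234, Ttll12 and Bbs4 to F8 at 0.257 and 0.309, and Rexo4 and Smarcd2 to Tfpi at 0.288 and 0.304. F3 had 0 counts in replicate 3 of each pressure, so its differences rest in part on the added 0.5 CPM. The lysosomal gene Idua was close to Plau at 0.538. For Vwf the nearest were Appl2 and Mb21d2 at 0.565 and 0.587, for Plat Cul5 and Dnajc5 at 0.667 and 0.684, and for Thbd the cholesterol exporter gene Abca1 and the glycolytic regulator Pfkfb3 at 0.743 and 0.781.

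Ratios within a library do not depend on how libraries are scaled, and for none of 3 was a difference between the pressures detected. The log2 ratio of F3 to Tfpi counts was -3.62, -3.97 and -9.85 in pathological replicates 1 to 3, and -4.01, -5.63 and -6.57 in physiological replicates 1 to 3. Replicate 3 of each pressure had 0 counts of F3, so its value is set by the added 0.5 count and by the counts of Tfpi, and no order is read from it. The mean difference was -0.41 (two-sided exact permutation test, p = 1), and both it and its value of 1.61 without pathological replicate 3 (exact p = 0.2) rest in part on these added counts. With 3 libraries per group this test cannot give less than 0.1, and with 1 library left out it cannot give less than 0.2.

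The balance of anticoagulant receptor to trigger, Thbd to F3, had log2 ratios of 5.99, 1.61 and 9.50 in the pathological and 5.65, 2.85 and 6.51 in the physiological libraries. The values of replicate 3 again rest on 0 counts of F3 and the added 0.5 count. The mean difference was 0.70 (exact permutation p = 0.9). For Plau to Plaur, the activator and its receptor, the log2 ratios were -0.92, -4.98 and -9.39 at pathological and -1.70, -4.29 and -9.26 at physiological pressure. Here libraries with neighbouring sample numbers lay close together, over a range of more than 7 log2 units within each pressure. Replicate 3 had 1 count of Plau at pathological and 2 at physiological pressure. The values of replicate 3, and with them the range, thus rest largely on floor counts and the added 0.5 count. The mean difference was -0.02 (exact permutation p = 1). Adjusted over the 3 ratios by the Benjamini-Hochberg method, every p was 1.

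**Figure D4:**
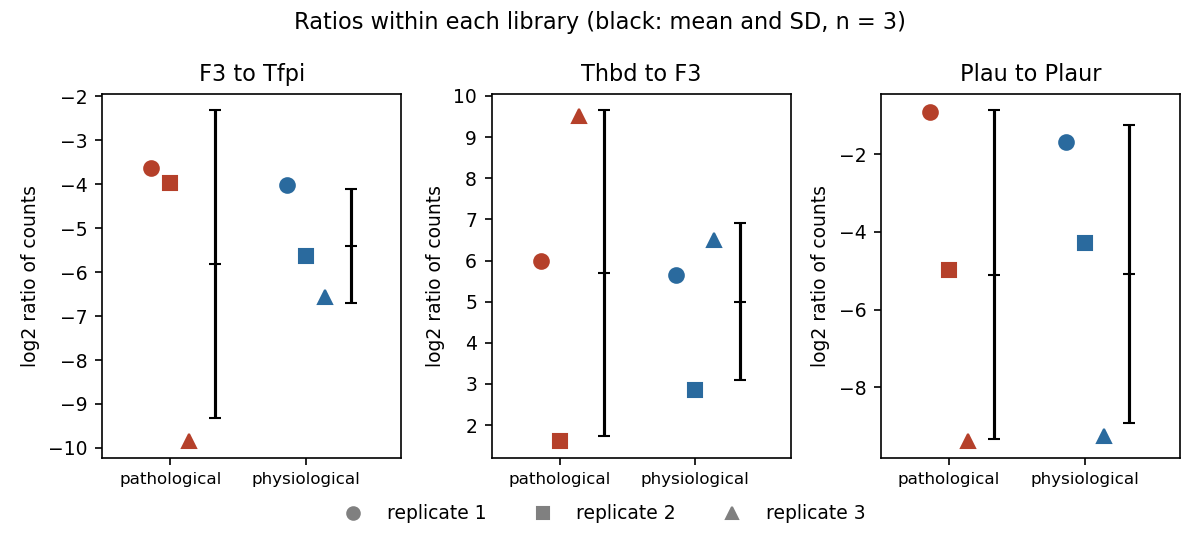
Log2 ratio of counts within each library for 3 gene pairs, pathological left of physiological; symbols mark the replicate number, black bars the mean and SD of 3 libraries. For Plau to Plaur the libraries numbered 1 lie at -0.92 and -1.70, and those numbered 3 at -9.39 and -9.26. Libraries with neighbouring sample numbers thus lie close together, but those numbered 3 have only 1 and 2 counts of Plau. In the other panels replicate 3 of both pressures has 0 counts of F3.

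Around these genes, the other genes of the plasminogen system gave no call either. Of 15 genes of plasminogen activation and its control, 14 were tested, 6 with positive and 8 with negative log2 fold changes and a median of -0.23, and 0 passed the threshold. A2m, a broad protease inhibitor, had the smallest p of the list (edgeR unadjusted p = 0.018, adjusted p = 1) and groups that did not overlap. It had 35, 49 and 359 counts in the pathological libraries and 0 in every physiological library. By counting error only, it was at least 135-fold higher over the group (floor of 3 counts over the physiological group). That bound leaves out the scatter between libraries. In the edgeR fit the log2 fold change was 10.90, with a confidence interval from 2.63 to 19.17. The lower end of this interval is a smaller change than the bound. Without pathological replicate 3, a setting chosen after seeing the data, A2m was at least 31.2-fold higher by counting error only. The log2 fold change without that library was 8.22. Plgrkt, a plasminogen receptor, measured 2.65, 1.47 and 20.3 CPM at pathological and 3.85, 0 and 0 CPM at physiological pressure (edgeR adjusted p = 1).

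The endothelial anticoagulant surface and thrombin receptors gave 15 tested genes of 18, with 12 negative, 3 positive and 0 past the threshold. Their median log2 fold change of -0.81 compares with 0.05 over all genes and with -0.75 over 15 tested pan-endothelial markers. F2r, the main thrombin receptor of endothelium, had groups that did not overlap, at 3.36, 6.44 and 6.73 CPM in the pathological and 10.1, 17.5 and 31.8 CPM in the physiological libraries. Its log2 fold change was -1.84 (95% CI -5.02 to 1.33, edgeR adjusted p = 1), and lay between -2.09 and -0.97 over all settings. Nt5e, which makes adenosine at the cell surface, measured 2.86, 2.32 and 0.190 CPM at pathological and 19.5, 16.3 and 0 CPM at physiological pressure. Pros1, the protein S gene that aids protein C, measured 63.2, 4.26 and 95.3 CPM at pathological and 61.3, 63.3 and 24.9 CPM at physiological pressure.

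Genes listed for the storage and handling of von Willebrand factor and factor VIII numbered 19, of which 18 were tested. The list includes vitamin K cycle genes such as Ggcx, which are not part of that handling. Among the genes tested, 7 had positive and 11 negative log2 fold changes, with a median of -0.39 and 0 past the threshold. Selp, the P-selectin gene whose protein is stored with von Willebrand factor, measured 1.29, 0 and 0 CPM at pathological and 19.5, 3.12 and 0.285 CPM at physiological pressure, and the log2 fold change was -4.11 (95% CI -10.84 to 2.61). Of the Selp counts 592 lay in physiological replicate 1, without which the log2 fold change was -1.84, and it was -10.06 without pathological replicate 1, the only pathological library with a count. Angpt2, stored in the same granules, measured 1.00, 1.71 and 16.7 CPM at pathological and 24.8, 16.3 and 0 CPM at physiological pressure. Ggcx, the vitamin K-dependent carboxylase, measured 52.0, 150 and 28.1 CPM at pathological and 43.6, 7.12 and 0.428 CPM at physiological pressure, and the log2 fold change was 2.17 (95% CI -1.22 to 5.55), between 1.22 without pathological replicate 2 and 4.40 without physiological replicate 1. Adamts13, the protease that trims von Willebrand factor and a product of stellate cells, measured 0.322, 0 and 16.7 CPM at pathological and 0.592, 12.6 and 0.143 CPM at physiological pressure. All of these named genes had an edgeR adjusted p of 1.

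The liver-made plasma factors named below were highest in the 3 libraries rich in hepatocyte transcripts, apart from F5. Of 22 symbols, 21 distinct genes were matched and 17 tested, 5 with positive and 12 with negative log2 fold changes, a median of -0.40 and 0 past the threshold. Fgb, a fibrinogen chain, measured 7.62, 16.2 and 865 CPM at pathological and 2.04, 621 and 552 CPM at physiological pressure, high in the same 3 libraries as the hepatocyte markers. F9 (factor IX) measured 0.393, 1.56 and 48.4 CPM at pathological and 0.329, 99.7 and 108 CPM at physiological pressure. Klkb1 (plasma prekallikrein) was detected in those 3 libraries alone, at 8.06 CPM in pathological replicate 3 and 24.6 and 28.7 CPM in physiological replicates 2 and 3. F5 (factor V) had at most 15 counts in any library and was not tested. None of the 9 endothelial genes was high in those 3 libraries and low in the others.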

How the data were processed

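Each deposited file holds the expected counts of a single library, not normalized, per the file headers. The submitters' processing notes list STAR, RSEM and limma. Genome build, annotation and strand setting were not given in the sources used here, so antisense and overlapping genes are uncertain. Per the labels' protocols, libraries were made from poly(A) RNA with 25 ng of total RNA and sequenced single-end. Expected counts were rounded to whole numbers and tested by quasi-likelihood in edgeR 4.0.16 (R 4.3.3) after filterByExpr and TMM scaling, without covariates, over all 6 libraries and all genes, two-sided. CPM use TMM-scaled totals and log2 values add 0.5 CPM. Ratios within a library add 0.5 count and were tested by exact permutation in scipy 1.17.1. Alternatives were other scalings, filters and tests (DESeq2 1.42.0, limma-voom 3.58.1), a hepatocyte term, a replicate block, subsets of libraries and leaving out each library. The 9 genes, the lists and the alternatives were chosen with earlier results of these data known.

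Named genes outside the 9 were the 2 with the smallest p in each of 4 pathway lists, 6 fixed genes and the 2 nearest in pattern to each member; some genes and a ratio that this rule gave are not reported here. Other cell types were followed with fixed marker lists. Symbols were matched to the files; 1 listed symbol, Kng2, led to the same identifier as Kng1 and was counted once, and Col1a2, Pecam1 and Robo4 were not matched. Every pair of libraries differed beyond sampling noise (chi-square of 81.9 or more per degree of freedom). The edgeR test was tried on counts simulated for pathological against physiological libraries. At a dispersion of 0.05, among 12655 genes tested, 46.3% of 67 genes with a 2-fold change were recovered and 97.0% of 67 with a 4-fold change. At the dispersions estimated from these libraries, among 11106 genes tested, 0 of 66 with a 16-fold change were recovered.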

Additional observations from a re-analysis of the deposited data

How the results depend on the processing

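Over the 17 alternative settings none of the 9 genes passed the threshold. The number of all genes called was 0 in the reported fit, 1 with DESeq2 and 244 among the 3 libraries richest in hepatocyte transcripts, a fit with 1 pathological library; it was 0 under the other settings and without each library. The cause of reversals was not tested. F3 was 0.011 with DESeq2 size factors and 0.012 with DESeq2. With scaling to endothelial markers, which moved the median of all genes to 0.86, the log2 fold changes were 0.46 for F8, 0.64 for Procr, 0.91 for F3 and 0.49 for Tfpi. With limma-voom they were -0.34 for Thbd, -1.12 for Pros1 and -0.91 for Adamts13. With a hepatocyte term they were -1.87 for Plau, -0.52 for Adamts13 and 0.68 for Fgb. With the replicate block of neighbouring sample numbers they were 0.10 for F3, 0.15 for Tfpi, -0.42 for Pros1 and -0.88 for Adamts13. Among the 3 libraries poorest in hepatocyte transcripts they were -0.87 for Thbd, 0.39 for Procr, -0.88 for Plgrkt, 1.55 for F9, -0.83 for Pros1, -1.80 for Adamts13 and 2.54 for Fgb. Among the 3 richest they were 0.23 for Tfpi, -6.12 for Plau, -1.38 for Plaur, 1.03 for Angpt2 and 0.58 for Fgb. Each of these subsets leaves 1 library alone in its group, so their values rest on which library that is. The Plau to Plaur difference was 0.035 with 1 count added. With 1 library left out, log2 fold changes ran from -1.84 to 3.44 for Thbd, -1.08 to 2.36 for Plau, -0.60 to 0.69 for Plaur, -0.87 to 1.41 for F3, -0.80 to 0.080 for Tfpi and -2.27 to 0.92 for Vwf. They ran from -0.55 to 0.66 for Pros1, -5.02 to 0.17 for Fgb and -4.71 to 3.81 for Adamts13. Ratio differences ran from -1.50 to 1.61 for F3 to Tfpi, -1.20 to 2.75 for Thbd to F3 and -2.11 to 2.13 for Plau to Plaur. No label says that neighbouring sample numbers mark a shared preparation. The correlation over genes of deviations from the group mean was 0.69, -0.24 and 0.42 for the 3 neighbouring pairs, and pathological replicate 2 deviated most like physiological replicate 1 (0.45), so the block is a setting and not a pairing; it called 0 genes. Depth limits low values: 3 counts equal 0.0987 to 0.428 CPM.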
